A study of Mus musculus with 6 samples.

Results

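Cells remove superoxide and peroxide in steps. Superoxide dismutases turn superoxide into hydrogen peroxide, catalase and the glutathione peroxidases reduce the peroxide, and glutaredoxins use glutathione to undo the oxidation of protein thiols. The 10 genes described here code for enzymes of these steps in the mouse. *Sod1* and *Sod2* are the superoxide dismutases of the cytosol and of the mitochondrial matrix, and *Cat* is the peroxisomal catalase. *Gpx1*, *Gpx4*, *Gpx7* and *Gpx8* are glutathione peroxidase family members. *Glrx*, *Glrx2* and *Glrx5* are the cytosolic glutaredoxin and the glutaredoxins found mainly in mitochondria. They were taken by name as a list of superoxide and peroxide detoxifying genes, by a rule that uses no measured value, although the list was drawn up with earlier results of these data known. All 10 were among the 16381 genes with a value.

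The study asked how melatonin changes gene expression in lung group 2 innate lymphoid cells (ILC2s), tissue lymphocytes that secrete type 2 cytokines when epithelial IL-33 reaches them. Wild-type BALB/cJ mice aged 6 to 8 weeks, given as female in the methods, received 0.5 µg IL-33 intranasally each day for 3 days. CD45+ lineage-negative ST2+ CD127+ cells were then sorted from the lungs to a stated purity above 95% and are called activated ILC2s (aILC2s). All samples were therefore IL-33-activated, and no resting cells were compared. Melatonin-treated aILC2s were cultured for 24 h with 250 µM melatonin and vehicle-treated aILC2s with its solvent DMSO, with 3 samples per group. The sources used here do not say whether the 3 samples came from separate mice or cultures, so p-values measure only the spread between these samples, which may in part be technical.

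Estimated counts ranged from 17056267 to 20511710 per sample. All 13 ILC2 markers examined were present, with a summed normalised count of 175339 to 188751 in vehicle and 128642 to 135516 in melatonin. The cytokine gene *Il5* had the highest count of the 13, and limma called 2 of the 13 higher, *Rora* and *Il1rl1*, and 8 lower, while the lineage factor gene *Gata3* was not called (log2 fold change 0.07, adjusted p = 0.667). Transcripts of the sex chromosomes did not match a single sex across samples. The X-inactivation RNA *Xist* was at 13.6, 7.46 and 5.81 in vehicle 1, 2 and 3, and at 0, 579 and 1091 in melatonin 1, 2 and 3. The Y-linked helicase gene *Ddx3y* was at 861, 907 and 746 in vehicle and at 1071, 0 and 0 in melatonin. Vehicle 1 to 3 and melatonin 1 thus carried Y-linked RNA, against the sex given in the methods, and melatonin 2 and 3 did not, so the melatonin samples were not all drawn from the same animal. For each of the 10 genes the comparison is therefore also given without melatonin 1 and with melatonin 1 as the only treated sample. The latter is the comparison among samples that all carry Y-linked RNA. It takes its spread from vehicle alone, so its calls and p-values do not measure the spread under melatonin. Without melatonin 1, every vehicle sample and no treated sample carries Y-linked RNA, so treatment cannot be told apart from sex there. Over all samples treatment and sex overlap in part. Library names run from 20 to 22 for melatonin and from 32 to 34 for vehicle, and treatment cannot be told apart from any batch along this numbering.

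The family members differ in the codons of the site that meets the peroxide or thiol, and that is why these codons are shown. In the glutathione peroxidases the capitals mark the codon of the catalytic residue, with 5 codons before and 5 after it. In *Gpx1* and *Gpx4* this codon is an in-frame TGA that the annotation marks as selenocysteine, while *Gpx7* and *Gpx8* have a cysteine codon in its place.
Gpx1: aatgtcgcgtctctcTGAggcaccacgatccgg
Gpx4: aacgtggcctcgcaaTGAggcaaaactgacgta
Gpx7: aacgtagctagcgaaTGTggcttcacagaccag
Gpx8: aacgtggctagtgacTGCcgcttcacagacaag
In the glutaredoxins the capitals mark the active site cysteine codons. *Glrx* and *Glrx2* have a pair of them and *Glrx5* has a single one.
Glrx: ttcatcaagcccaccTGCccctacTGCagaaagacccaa
Glrx2: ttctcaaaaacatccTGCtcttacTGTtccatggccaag
Glrx5: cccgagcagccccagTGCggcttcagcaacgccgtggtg
These coding sequences were read from GRCm39 with Gencode M39 transcripts and are written in the sense of each gene. The first capital codon lies at chr9:108216650-108216652 in exon 1 of 2 of *Gpx1*, at chr10:79890571-79890573 in exon 3 of 7 of *Gpx4*, at chr4:108260627-108260629 on the minus strand in exon 2 of 3 of *Gpx7*, and at chr13:113182195-113182197 on the minus strand in exon 2 of 3 of *Gpx8*. It lies at chr13:75988154-75988156 in exon 1 of 3 of *Glrx*, at chr1:143620830-143620832 in exon 3 of 4 of *Glrx2*, and at chr12:104999145-104999147 in exon 1 of 2 of *Glrx5*.

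Melatonin-treated aILC2s had more *Cat* transcript and less *Gpx1*, *Gpx7*, *Gpx8* and *Glrx* transcript than vehicle-treated aILC2s. *Sod1*, *Sod2*, *Gpx4*, *Glrx2* and *Glrx5* did not pass the test. The test was limma on log2 of the normalised count plus 1, with p-values adjusted over the 14419 genes that reached 10 in any sample, and all 10 genes entered it. Hence 1 of 10 was called higher and 4 of 10 lower at an adjusted p under 0.05, where limma called 24.5% of all genes tested higher and 24.7% lower, 49.2% in either direction. The share of the 10 genes called was 50%, near that background. With GC content corrected, with transcript length corrected or without melatonin 1, 2 of the 10 were called higher and 5 lower. Of all genes tested, 3558, 3396 and 3454 were then called higher and 3524, 3509 and 3619 lower. The test above called 3529 and 3565. The groups did not overlap for 7 of the 10, with 2 higher and 5 lower in melatonin, beside 30.0% and 30.3% of all genes tested, 60.4% together. The median log2 fold change was −0.21 over the 10 genes and −0.00 over all genes tested, and the median size of the change was 0.40 and 0.45. These are bulk samples, so fewer cells of a type and less RNA per cell cannot be told apart.

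**Figure D1:**
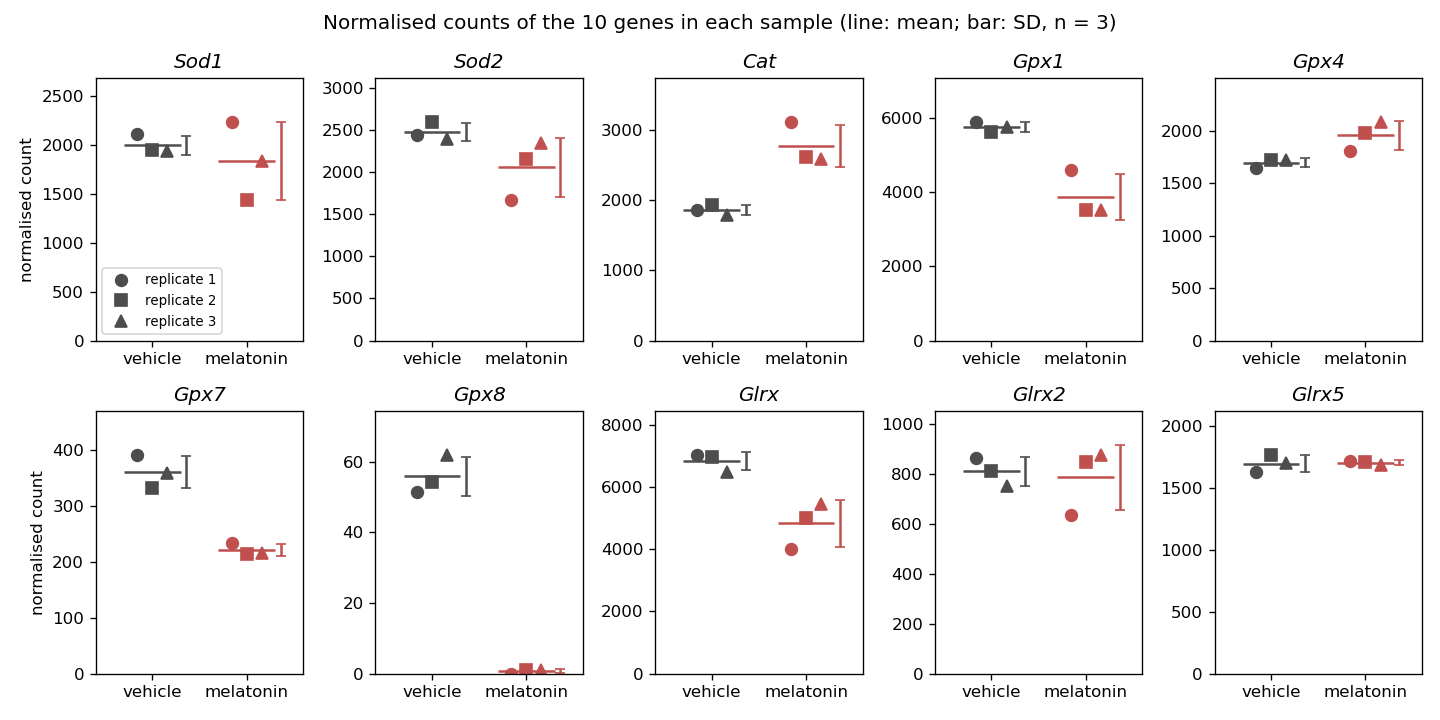
Normalised counts (vertical axis, starting at 0, with its own scale per gene) of the 10 genes in the 3 vehicle and 3 melatonin samples. Symbols give the replicate, lines the mean and bars the SD (n = 3). *Cat* lies higher in every melatonin sample, *Gpx1*, *Gpx7*, *Gpx8*, *Glrx* and *Sod2* lie lower, *Gpx4* lies slightly higher, and *Sod1*, *Glrx2* and *Glrx5* overlap.

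The plot of normalised counts by sample shows a spread that was wider, relative to the mean, in melatonin than in vehicle for most of the 10 genes, but not for *Gpx7* and *Glrx5*. Over genes whose mean reached 100, the median coefficient of variation was 5.96% in vehicle and 10.6% in melatonin. In melatonin the coefficient reached 86.8% for *Gpx8*, which had few counts there. It was 21.9% for *Sod1*, 17.2% for *Sod2*, 16.6% for *Glrx2*, 16.1% for *Gpx1* and 15.4% for *Glrx*. *Gpx7* varied by 8.14% in vehicle and 4.74% in melatonin, and *Glrx5* by 4.14% and 1.06%. Of the 3 melatonin samples, melatonin 1 lay farthest from the vehicle mean on the log2 scale for 6 of the 10 genes, melatonin 2 for 3 and melatonin 3 for 1.

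Neither superoxide dismutase passed the test. *Sod1* (chr16:90017408-90027657), the copper and zinc enzyme, had normalised counts of 2106, 1947 and 1931 in vehicle and 2231, 1431 and 1834 in melatonin. Melatonin 1 lay above every vehicle sample and the other two melatonin samples below every one, so the groups overlapped. The means were 1995 ± 96.9 and 1832 ± 400 (SD, n = 3 each), and the log2 fold change was −0.15 with a 95% interval of −0.47 to 0.18 (limma adjusted p = 0.428). Without melatonin 1 it was −0.30 and was called (adjusted p = 0.0479), in a fit where treatment and sex cannot be told apart. With melatonin 1 as the only treated sample it was 0.16. Without melatonin 2 it was 0.021 (adjusted p = 0.888), so leaving out that library turned the direction. *Sod1* overlaps *Scaf4* on the opposite strand, and the library kit does not mark strand, so reads of the shared stretch cannot be told apart. *Scaf4* was at 1021, 1149 and 1171 in vehicle and 1404, 1523 and 1372 in melatonin.

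*Sod2* (chr17:13224095-13259591), the manganese enzyme, had 2442, 2593 and 2393 in vehicle and 1663, 2158 and 2346 in melatonin. Every melatonin sample lay below every vehicle sample, with melatonin 3 only just below the lowest of them. The means were 2476 ± 104 and 2055 ± 353 (SD, n = 3 each), a difference of −17.0%. The log2 fold change of −0.28 had a 95% interval of −0.56 to −0.00 and missed the threshold (limma adjusted p = 0.0855). It was −0.14 without melatonin 1 (adjusted p = 0.144). It was −0.57 with melatonin 1 as the only treated sample, a fit that takes the spread of the lone sample from vehicle. It was called at −0.40 with either GC content or transcript length corrected (adjusted p = 0.0192 and 0.0300).

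*Cat* (chr2:103284194-103316185, minus strand) codes for the heme enzyme that splits hydrogen peroxide in peroxisomes. It was the 1 gene of the 10 that the test called higher. Its normalised counts were 1862, 1936 and 1792 in vehicle and 3112, 2614 and 2587 in melatonin. All melatonin samples lay above all vehicle samples, and melatonin 1 was the highest. The means were 1863 ± 71.9 and 2771 ± 296 (SD, n = 3 each), a rise of 48.7%. The log2 fold change was 0.57 with an SE of 0.09 (limma adjusted p = 0.00126). It was 0.48 without melatonin 1, where *Cat* was called, and 0.74 with melatonin 1 as the only treated sample.

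*Gpx1* and *Gpx4* code for the selenocysteine peroxidases of the sequences above, and they did not move alike. *Gpx1* (chr9:108216102-108217546), the cytosolic enzyme that reduces soluble peroxides, had 5890, 5634 and 5762 in vehicle and 4591, 3513 and 3516 in melatonin. Melatonin 1 lay between the vehicle samples and the other melatonin samples, with no overlap of the groups. The means were 5762 ± 128 and 3873 ± 622 (SD, n = 3 each), so the mean fell by 32.8% with melatonin. The log2 fold change was −0.58 with an SE of 0.11 (limma adjusted p = 0.00258). It was −0.71 without melatonin 1, which was called, and −0.33 with melatonin 1 as the only treated sample. With transcript length corrected it was −0.35 (adjusted p = 0.0479).

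*Gpx4* (chr10:79883000-79892273), which reduces lipid peroxides within membranes and restrains ferroptosis, had 1642, 1720 and 1722 in vehicle and 1803, 1974 and 2080 in melatonin. All melatonin samples lay above all vehicle samples by a small margin. The means were 1695 ± 45.7 and 1953 ± 140 (SD, n = 3 each), 15.2% higher in melatonin. The log2 fold change of 0.20 had a 95% interval of 0.02 to 0.39 and missed the threshold (limma adjusted p = 0.0681). It was 0.26 without melatonin 1 and was then called (adjusted p = 0.0145), in a fit where treatment and sex cannot be told apart. It was 0.09 with melatonin 1 as the only treated sample. With transcript length corrected it was 0.46 and was called (adjusted p = 0.00107). Counts were per gene, so the cytosolic, mitochondrial and nuclear forms of *Gpx4* were not separated. The processed pseudogenes *Gpx4-ps1* and *Gpx4-ps2* could share its reads.

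*Gpx7* and *Gpx8* code for the cysteine forms, which act in the endoplasmic reticulum, where protein disulfides are made. *Gpx7* (chr4:108257583-108264158, minus strand) had 390, 332 and 358 in vehicle and 233, 213 and 216 in melatonin. The melatonin samples lay close together and well below vehicle. The means were 360 ± 29.3 and 221 ± 10.5 (SD, n = 3 each), so the mean fell by 38.7%, and the log2 fold change was −0.70 with an SE of 0.12 (limma adjusted p = 0.0017). It was −0.74 without melatonin 1, which was called, and −0.62 with melatonin 1 as the only treated sample.

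*Gpx8* (chr13:113178829-113183292, minus strand) was low in vehicle and fell to 1 estimated count or none per sample in melatonin. Its normalised counts were 51.3, 54.3 and 61.9 in vehicle and 0, 1.09 and 1.01 in melatonin. These stand for estimated counts of 55, 58 and 59 in vehicle and 0, 1 and 1 in melatonin, the latter all under the floor of 3 counts. The ratio of vehicle to melatonin was 82.9, with a 95% exact counting interval of 22.6 to 690 that covers counting error only. The fitted log2 fold change of −5.14 (limma adjusted p = 9.1e-05) depends on the pseudocount, moving to −6.78 at 0.1 and −2.62 at 10. It was −4.79 without melatonin 1, which was called, and −5.83 with melatonin 1 as the only treated sample. *Gpx8* lies within *Cdc20b* on the opposite strand, and *Cdc20b* was at 8.40, 5.62 and 9.26 in vehicle and at 0 in all melatonin samples.

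Several markers of cells outside the sort gate were lower in the same samples as *Gpx8*. Of 9 epithelial markers 8 were listed, with sums of 964 to 2412 in vehicle and 1061 to 1261 in melatonin. Limma called 5 of them lower and 1, *Epcam*, higher. *Epcam* made up most of the melatonin sums, at 1230, 1016 and 1046 in melatonin 1, 2 and 3. The alveolar surfactant gene *Sftpc* was at 155, 122 and 389 in vehicle and 6.54, 5.46 and 3.02 in melatonin. The club cell gene *Scgb1a1* was at 95.2, 21.5 and 1045 in vehicle and 0, 0 and 1.01 in melatonin. All 4 NK cell markers were listed, with sums of 203 to 266 and 19.6 to 30.6. Among them *Ncr1*, whose product CD335 the sort gated out, was at 104, 101 and 114 and then at 0, 0 and 1.01. Of 8 macrophage markers 7 were listed, with sums of 1369 to 1578 and 364 to 847. Of 6 T cell markers 4 were listed (3649 to 3980 and 1318 to 1826), of 4 B cell markers 2 (289 to 322 and 131 to 162), and of 4 endothelial markers 2 (1008 to 1069 and 310 to 416). The T cell, B cell and endothelial sums rested mostly on *Trbc2*, *Cd79b* and *Pecam1*, at 3747, 280 and 1066 in vehicle 1. The other listed markers of these cells were lower there: *Cd3e* at 212, *Cd3d* at 14.9, *Trac* at 5.60, *Cd79a* at 9.33 and *Vwf* at 2.80. Of 7 eosinophil, mast cell and basophil markers 3 were listed, with sums of 9.37 to 18.9 in vehicle and 1.87 to 37.2 in melatonin. No fibroblast marker of the 5 examined was listed. The part of other cells in the *Gpx8* result was not tested.

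*Glrx* fell while the mitochondrial glutaredoxins did not pass the test. *Glrx* (chr13:75987974-76002178), which removes glutathione from cytosolic protein thiols, had 7031, 6970 and 6496 in vehicle and 4011, 5015 and 5465 in melatonin. All melatonin samples lay below all vehicle samples, and melatonin 1 was the lowest. The means were 6832 ± 293 and 4830 ± 744 (SD, n = 3 each), so the mean fell by 29.3%. The log2 fold change was −0.51 with an SE of 0.11 (limma adjusted p = 0.00587). It was −0.38 without melatonin 1, which was called, and −0.77 with melatonin 1 as the only treated sample.

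*Glrx2* (chr1:143592076-143626588) had 866, 814 and 752 in vehicle and 638, 850 and 877 in melatonin. Melatonin 1 was the lowest of all samples and melatonin 3 the highest. The means were 811 ± 57.0 and 788 ± 131 (SD, n = 3 each), with a log2 fold change of −0.05 and a 95% interval of −0.35 to 0.25 (limma adjusted p = 0.762). It was 0.09 without melatonin 1 (adjusted p = 0.417) and −0.34 with melatonin 1 as the only treated sample. *Glrx2* overlaps *Ro60* on the opposite strand, which was at 175, 164 and 170 in vehicle and 267, 185 and 179 in melatonin.

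*Glrx5* (chr12:104998939-105009165), which hands on iron-sulfur clusters in mitochondria, had 1624, 1764 and 1700 in vehicle and 1716, 1711 and 1683 in melatonin. All melatonin samples fell inside the vehicle range. The means were 1696 ± 70.2 and 1703 ± 18.0 (SD, n = 3 each), and the log2 fold change of 0.01 had a 95% interval of −0.16 to 0.18 (limma adjusted p = 0.945). With melatonin 1 as the only treated sample it was 0.02, and without melatonin 1 the adjusted p was 0.988. Its interval was the narrowest of the 10 genes, and it leaves out changes as large as those of *Cat*, *Gpx1*, *Gpx7*, *Gpx8* and *Glrx*.

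**Figure D2:**
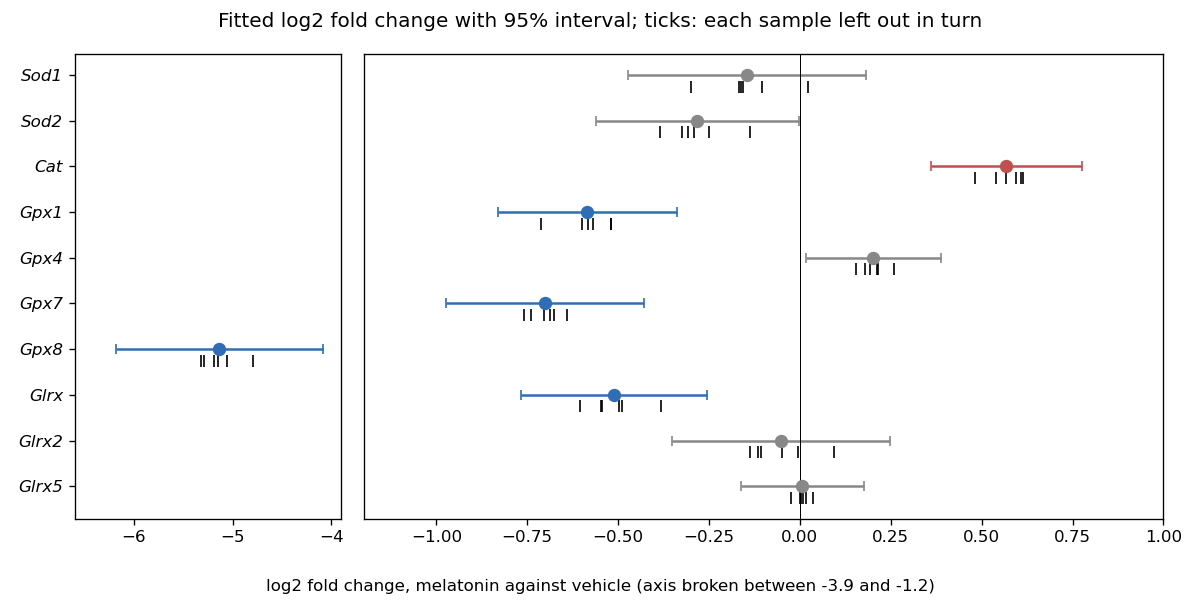
Log2 fold change of melatonin against vehicle (horizontal axis, broken to hold *Gpx8*) with the 95% interval from limma, for each of the 10 genes. Red marks a gene called higher, blue a gene called lower and grey one that was not called, and ticks give the value with each of the 6 samples left out. Ticks lie on both sides of 0 for *Sod1*, *Glrx2* and *Glrx5*, and *Gpx8* is at −5.14.

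In the plot of fold changes, each sample left out in turn moved *Sod1* between −0.30 and 0.02 and *Glrx2* between −0.14 and 0.09. *Cat* stayed between 0.48 and 0.61, *Gpx1* between −0.71 and −0.52, *Gpx7* between −0.76 and −0.64 and *Glrx* between −0.61 and −0.38, and each of these was called in all 6 fits. *Sod1*, *Sod2* and *Gpx4* were each called in 1 of the 6.

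Ratios within a sample compare enzymes that share a substrate or a family and do not depend on the size factor of the sample. *Cat* stood at 0.316, 0.344 and 0.311 of the *Gpx1* normalised count in vehicle and at 0.678, 0.744 and 0.736 in melatonin. Both enzymes break down hydrogen peroxide, and every melatonin ratio lay above every vehicle ratio. On the log2 scale the shift was 1.15 with an SE of 0.06, and each melatonin sample, melatonin 1 included, shared it. *Gpx4* to *Gpx1* went from 0.279, 0.305 and 0.299 to 0.393, 0.562 and 0.592, a log2 shift of 0.79 with an SE of 0.19. *Glrx* to *Glrx5* went from 4.33, 3.95 and 3.82 to 2.34, 2.93 and 3.25, a log2 shift of −0.52 with an SE of 0.15, or −0.27 with transcript length corrected.

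The groups did not overlap for these ratios or for *Gpx8* to *Gpx7*, whose log2 shift was −4.43 with an SE of 0.40 at a pseudocount of 1. For *Sod2* to *Sod1* the groups overlapped, with a log2 shift of −0.14 and an SE of 0.31. They also overlapped for *Glrx2* to *Glrx5*, with a shift of −0.06 and an SE of 0.17. A two-sided exact permutation test of 3 against 3 cannot give a p below 0.1. It gave p = 0.1 for each of the 4 ratios without overlap (0.15 adjusted over the 6 ratios), exact p = 0.9 for *Sod2* to *Sod1* and exact p = 0.8 for *Glrx2* to *Glrx5* (both 0.9 adjusted).

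**Figure D3:**
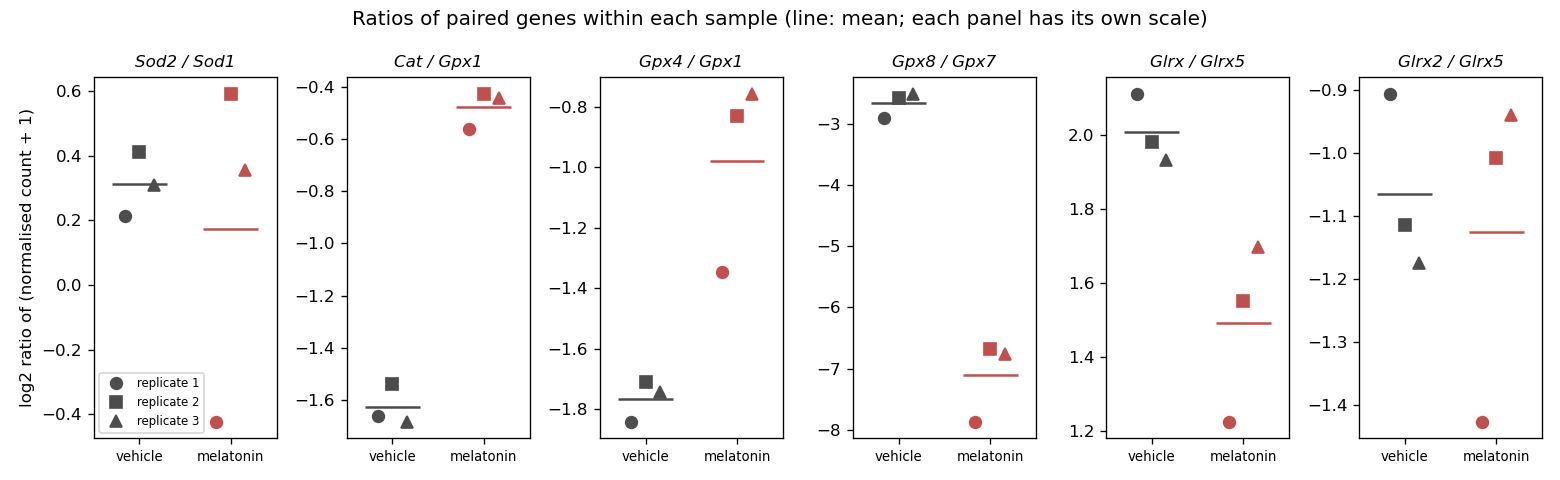
Log2 ratio of 2 genes within each sample (vertical axis, its own scale per panel and not starting at 0), for 6 pairs in vehicle and melatonin. Lines are means of 3 samples and symbols give the replicate. *Cat* to *Gpx1* separates the groups with little spread, with means of −1.63 in vehicle and −0.48 in melatonin, while melatonin 1 is the lowest sample for *Sod2* to *Sod1* and for *Glrx2* to *Glrx5*.

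Levels were compared between genes as normalised counts per kilobase of the canonical transcript. In vehicle *Gpx1* was highest at 5375 per kilobase and *Glrx* next at 5031, at percentiles of 98.0 and 97.8 among the tested genes with a length. *Gpx4* followed at 1767, *Cat* at 713, *Glrx5* at 579, *Sod2* at 414, *Sod1* at 375, *Gpx7* at 279 and *Glrx2* at 219, and *Gpx8* was lowest at 30.1. No neighbours in that order overlapped between vehicle samples. In melatonin *Gpx1* at 3613 and *Glrx* at 3557 overlapped, as did *Sod1* at 345 and *Sod2* at 344, and *Glrx2* at 213 and *Gpx7* at 171, while *Cat* at 1061 kept its place below *Gpx4* at 2036. The order depends on the transcript length taken: coding transcripts of *Sod1* are annotated from 874 to 5315 bases, and its vehicle level is 2282 per kilobase with the shortest. *Gpx8* was lowest with any annotated coding transcript, at 30.1 to 35.1 per kilobase.

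Of the other genes of these families, *Glrx3*, a cytosolic glutaredoxin that also acts in iron-sulfur protein assembly, was abundant and fell. It went from 2178 ± 76.0 to 1221 ± 47.4 (SD, n = 3 each), a log2 fold change of −0.83 (limma adjusted p = 9.9e-05). *Gpx2* and *Gpx3* had means of 8.59 and 22.1 in vehicle and 0 and 21.4 in melatonin and were not called, except that *Gpx2* was called lower without vehicle 1. *Gpx2* was at 0, 3.75 and 22.0 in vehicle 1, 2 and 3, so its mean rests mostly on vehicle 3. *Sod3*, the extracellular dismutase, was under the minimum for the test, with 2.80, 2.81 and 7.34 in vehicle and 0 in melatonin. Without that minimum, 2 of the other family genes were called lower in place of 1. *Gpx5*, *Gpx6*, *Grxcr1* and *Grxcr2* had no value in the table.

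The superoxide dismutases need copper, zinc or manganese. Of 10 tested genes for copper and manganese delivery, limma called 2 higher and 5 lower, with a median log2 fold change of −0.37. The metallothionein *Mt1* fell from 410 ± 44.5 to 103 ± 37.8 (log2 fold change −2.04, limma adjusted p = 0.000267), and the copper exporter *Atp7a* rose from 112 ± 22.9 to 196 ± 18.4 (0.82, adjusted p = 0.00705). *Atp7a* lies on chromosome X, and without chromosomes X and Y the list had 1 gene called higher. Melatonin 1, which carries Y-linked RNA as the vehicle samples do, had 178 *Atp7a* counts where vehicle had 132, 87.1 and 119. *Ccs*, the copper chaperone that loads SOD1, fell from 807 to 536 (−0.60, limma adjusted p = 0.0034).

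Of 15 tested genes for peroxisomal protein import and peroxisomal oxidases, 6 were called higher and 2 lower, with a median of 0.06. *Pex6*, part of the motor that recycles the import receptor, rose from 434 ± 132 to 776 ± 104 (log2 fold change 0.87, limma adjusted p = 0.00841). *Pex5*, the receptor that carries catalase into the peroxisome, was at 567 in vehicle and 581 in melatonin (0.02, limma adjusted p = 0.931). The polyamine oxidase gene *Paox*, whose product makes hydrogen peroxide there, fell from 167 to 72.9 (−1.19, adjusted p = 0.000662).

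Of 10 tested genes for selenocysteine incorporation, which *Gpx1* and *Gpx4* both need, 3 were called higher and 2 lower, with a median of −0.17. The number called lower was 1 with GC content corrected and 5 with melatonin 1 as the only treated sample. *Secisbp2l* rose from 682 ± 17.6 to 1708 ± 51.4 (log2 fold change 1.32, limma adjusted p = 1.8e-05), and *Rpl30* fell from 334 ± 2.41 to 151 ± 41.3 (−1.18, adjusted p = 0.00182). *Rpl30* is a ribosomal protein gene with processed copies in the genome that could share its reads. Of 15 tested genes for other selenoproteins, 5 were called higher and 2 lower, with a median of 0.05. The number called lower was 1 without vehicle 2, and the number called higher was 8 with transcript length corrected. *Selenon*, of the endoplasmic reticulum, rose from 50.2 ± 6.72 to 166 ± 84.3 (1.56, limma adjusted p = 0.00887), and *Selenop*, a secreted selenium carrier, from 222 ± 17.9 to 466 ± 28.0 (1.07, adjusted p = 0.000227).

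GLRX5 acts in mitochondrial iron-sulfur cluster assembly. Of 18 other genes of this pathway tested, 3 were called higher and 7 lower, with a median of −0.30. The number called lower was 11 with melatonin 1 as the only treated sample. The ferredoxin gene *Fdx2* fell from 927 ± 12.2 to 323 ± 52.7 (log2 fold change −1.53, limma adjusted p = 6.1e-05), and *Lyrm4*, which stabilises the cysteine desulfurase, from 196 ± 23.4 to 82.3 ± 7.28 (−1.24, adjusted p = 0.000526).

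GPX7 and GPX8 share their compartment with the enzymes of oxidative protein folding. Of 13 of those genes tested, 7 were called higher and 1 lower, with a median of 0.28. The number called higher was 4 without vehicle 1, without vehicle 3 or with transcript length corrected, and the number called lower was 0 without vehicle 2 or with GC content corrected and 3 with melatonin 1 as the only treated sample. The disulfide reductase gene *Dnajc10* rose from 1702 ± 52.5 to 2828 ± 133 (log2 fold change 0.73, limma adjusted p = 0.000166), and the oxidase gene *Ero1b* from 489 ± 35.9 to 768 ± 91.7 (0.65, adjusted p = 0.00202). The peroxiredoxin gene *Prdx4*, whose product also removes peroxide in this compartment, rose from 1839 to 2529 (0.46, limma adjusted p = 0.00266). Melatonin 1, which carries Y-linked RNA as the vehicle samples do, had 2357 *Prdx4* counts where vehicle had 1965, 1830 and 1723. Without chromosomes X and Y the folding list had 6 genes called higher. At the source of superoxide, 9 NADPH oxidase subunit genes were tested, of which 2 were called higher and 5 lower, with a median of −0.37. The number called lower was 3 without vehicle 1 or without vehicle 2. Of the 7 macrophage markers listed, 4 were called lower, with sums of 1369 to 1578 in vehicle and 364 to 847 in melatonin. The part of other cells in the oxidase counts was not tested. *Ncf4* fell from 5390 ± 23.3 to 2337 ± 213 (log2 fold change −1.21, limma adjusted p = 2.8e-05). *Cybb*, the catalytic subunit of the phagocyte oxidase, had means of 54.2 in vehicle and 47.1 in melatonin and was not called. Its counts were 56.0, 55.3 and 51.4 in vehicle and 23.3, 78.7 and 39.2 in melatonin.

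**Figure D4:**
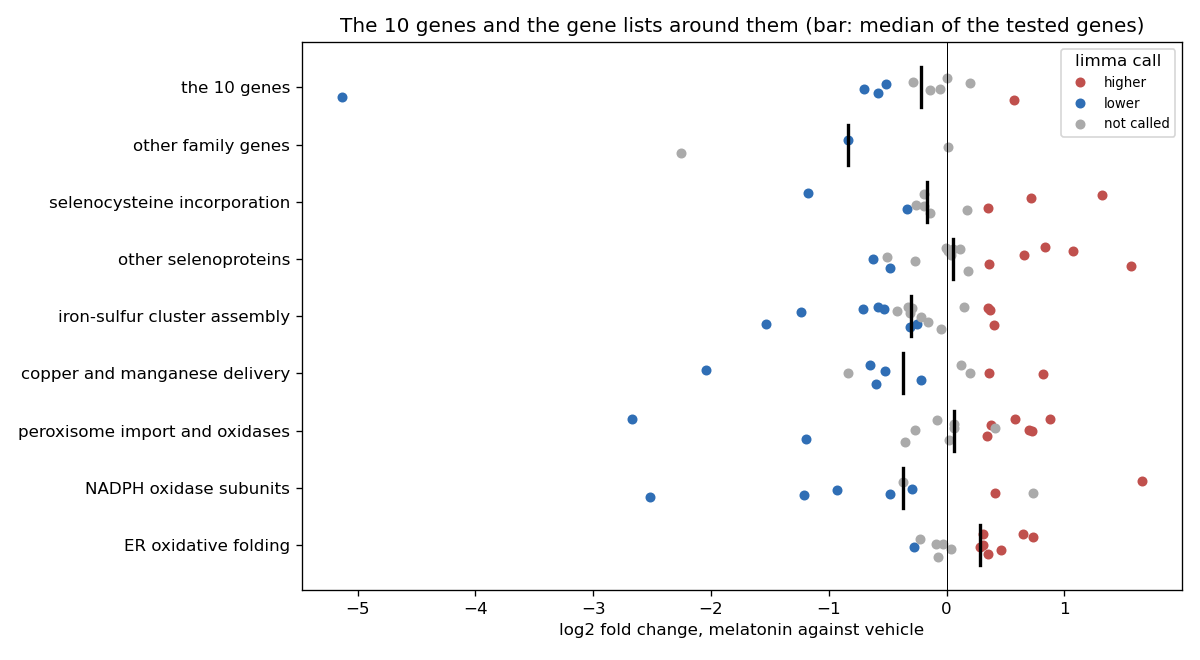
Log2 fold change of melatonin against vehicle (horizontal axis) for each tested gene of the 10 and of 8 lists around them (rows). Points are genes, red where limma called them higher, blue lower and grey not called, and bars are list medians. The medians run from −0.83 in the other family genes, where 3 genes were tested, to 0.28 in endoplasmic reticulum folding.

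The plot of gene lists shows calls in both directions in every list but that of the other family genes, where the 1 call was lower. Each list is described by its counts beside the 24.5% and 24.7% of all genes called higher and lower, and no list was tested as a set.

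The promoters of the 10 genes were searched for 2 motifs of redox and activation factors, on both strands, from 250 bases before to 50 after the start in RefSeq windows of GRCm38.p6. The antioxidant response element core TGACNNNGC was found in *Sod1* alone, and 14.0% of all genes with a window hold it. The AP-1 site TGANTCA was found in *Glrx* alone, and 8.97% of genes hold it. These matches describe letters in the windows only.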

How the data were processed

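Reads were quality-trimmed by the authors in Partek Flow 12.9.0, mapped to mm39 with STAR 2.7.8a and assigned to genes of Gencode M33 by Partek's E/M method, which can divide a read among genes. Genes with few counts were removed. The deposited values are a normalised signal: estimated counts that the authors scaled with the median ratio size factors of DESeq2, called normalised counts. The value of 1 read per sample was recovered from the spacing of the values and gave the estimated counts and the floor of 3 counts, 2.80 to 3.28 normalised counts. Since 64.8% of values were whole multiples of 1 read at a tolerance of 0.01, whole reads were not recovered. The authors' model for counts was therefore replaced by limma 3.58.1 in R 4.3.3 (mean-variance trend) on log2 of the value plus 1, with no term but treatment, on genes that reached 10 in any sample. Adjustment was by Benjamini and Hochberg, with a threshold of 0.05. Fold changes on this scale understate the change of low genes.

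Gene names, GRCm39 positions, lengths and sequences came from Gencode M39, which named 16334 of 16381 genes. The genes named are the 10 members and the 2 called genes of each list with the largest change and a mean of at least 100. Further named genes are those on which a result turns or which were singled out after their values were seen (*Ccs*, *Pex5*, *Prdx4*, *Cybb*, *Epcam*, *Il5*, *Rora*, *Il1rl1*, *Gata3*, *Trbc2*, *Cd79b*, *Pecam1*). A gene of the NADPH oxidase list is withheld for evaluation and not reported singly here. Members and lists were chosen with earlier results of these data known. Data were simulated for this comparison (14004 genes, variation of 4.53% in vehicle and 9.65% in melatonin). There the test recovered 100 of 100 genes changed 2-fold and 100 of 100 changed 4-fold, and called 4 of 13804 unchanged genes. Smaller changes and wider spreads were not simulated, so recovery of changes such as those of *Sod1*, *Sod2*, *Gpx4* and *Glrx2* was not tested. No sample was a copy of another: the chi-square per degree of freedom was 6.34 to 37.2 within groups. Alternatives were pseudocounts of 0.1 and 10, other filters, same total, upper quartile and quantile scaling, no trend, sample weights, voom on estimated counts, a replicate block, corrections for transcript length and GC content, and each sample left out. A test without chromosomes X and Y, and melatonin 1 as the only treated sample, were added after the data had been seen. Python 3.11.15, numpy 2.4.6, pandas 2.3.3, scipy 1.17.1 and matplotlib 3.10.9 were used.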

Additional observations from a re-analysis of the deposited data

How the results depend on the processing

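*Cat*, *Gpx1*, *Gpx7* and *Glrx* kept their direction and call in all 21 alternatives and *Gpx8* in the 20 that tested it, since a filter on a mean of at least 100 drops it. With transcript length corrected, *Gpx1* moved to −0.35 (limma adjusted p = 0.0479) and the log2 ratio *Glrx* to *Glrx5* to −0.27, and a pseudocount of 10 moved the log2 ratio *Gpx8* to *Gpx7* to −1.94. Genes called higher ranged from 2747 to 3863 and lower from 2667 to 3926 over the alternatives. Of the 10 genes, 2 in place of 1 were called higher with GC content or transcript length corrected, with scaling to the same total and with sample weights, the added gene being *Gpx4* at log2 fold changes of 0.27, 0.46, 0.24 and 0.22. *Sod2* was called at −0.40 with either GC content or transcript length corrected. With melatonin 1 as the only treated sample, whose spread is taken as that of the vehicle samples, *Sod2* was at −0.57, *Glrx2* at −0.34 and *Sod1* at 0.16. *Glrx5* was at −0.025 with quantile normalisation, −7.6e-05 with sample weights, −0.085 with transcript length corrected and −0.040 with upper quartile scaling, and *Glrx2* at 0.024 with sample weights. The cause of these shifts was not tested.

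When samples were left out singly, the number of the 10 called higher ran from 1 to 2 and the number called lower from 4 to 5. Over the same fits *Sod1* ran from −0.30 to 0.021, *Sod2* from −0.39 to −0.14 and *Gpx4* from 0.15 to 0.26. *Glrx2* ran from −0.14 to 0.092 and *Glrx5* from −0.024 to 0.036. The log2 ratio *Sod2* to *Sod1* ran from −0.35 to 0.16, positive without melatonin 1, and *Glrx2* to *Glrx5* from −0.15 to 0.091, positive without vehicle 1 or melatonin 1. Deviations from the group means of samples with the same replicate number had correlations of −0.11, 0.14 and −0.19 over genes. Between other samples the correlation reached 0.31, for vehicle 1 with melatonin 3. Deviations from means of 3 samples cannot decide whether the numbers pair the samples. The fit with the replicate block called 3160 genes higher in place of 3529, left 1 of the 10 genes higher and 4 lower, and changed no call among them. At 17056267 or more estimated counts per sample, depth limits *Gpx8* in melatonin and *Sod3* but none of the other 9 genes.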
